A study of Homo sapiens with 8 samples.

Results

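CCND1, CCND3, MET, MYC, PTGS2, SPP1 and CXCR4 are 7 genes that have been described in the literature as targets of PEA3 factors and that do not encode proteases. They were taken by name, 7 of the 34415 gene symbols counted, in HaCaT cells in which the PEA3 factor ETV4 had been lowered. HaCaT is an established human keratinocyte line that became immortal without a viral oncogene. In 4 cultures ETV4 was targeted by a small interfering RNA (siETV4), and 4 cultures received a negative-control small interfering RNA (siNC), in both cases for 48 h. All 8 cultures also spent 96 h in 35 mM glucose, against 5.5 mM in the usual medium, so the values compare siRNAs within high glucose. The submitters call the cultures independent biological replicates, from passages of 1 cell line.

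ETV4, ETV1 and ETV5 form the PEA3 group of the ETS transcription factors, which bind DNA at a GGAA core and are activated by growth factor signalling through ERK. Their proposed targets fall into 3 kinds. CCND1 and CCND3 encode D-type cyclins, which activate CDK4 and CDK6 in G1, and MYC encodes a transcription factor that drives growth and biosynthesis. MET encodes the receptor of hepatocyte growth factor, which keratinocytes use in wound closure, and CXCR4 encodes the receptor of the chemokine CXCL12. PTGS2 encodes cyclooxygenase-2, the inducible enzyme that makes prostaglandin H2, and SPP1 encodes osteopontin, a secreted ligand of integrins and CD44.

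None of the 7 genes passed the test between siETV4 and siNC. edgeR's quasi-likelihood test, with p-values adjusted by Benjamini and Hochberg over 13572 genes, called 0 of the 5 members with enough reads, where it called 0.236% of all genes (0.118% higher and 0.118% lower in siETV4). The threshold for a call was an adjusted p of 0.05. The siETV4 and siNC libraries overlapped for all 5, while for 6.55% of all genes they did not. At an unadjusted p under 0.05 the members numbered 2, PTGS2 with a positive and MYC with a negative log2 fold change, and 12.6% of all genes lay there. DESeq2 and limma-voom also called 0 of the 5, where DESeq2 called 1.12% of all genes and limma-voom 42 of 13572. The same backgrounds apply where these tools are named for the gene lists below. SPP1 and CXCR4 did not pass the filter on low counts. The 5 tested members had a median log2 fold change of 0.10, against -0.01 over all genes tested, with 3 values above 0 and 2 below.

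ETV4 itself was low in every siETV4 library, at 3.1, 2.71, 1.83 and 2.80 CPM (counts relative to the library total, scaled by TMM), against 32, 29.7, 31.1 and 19.8 CPM in the siNC libraries. Its log2 fold change was -3.43 (SE 0.21, edgeR adjusted p 4.64e-05). siNC replicate 4 held the least ETV4 of its group. ETV4 had 4798 counts in all libraries and overlaps DHX8, which had 32032, and the strand setting of the counting is unknown. ETV5 averaged 3.84 ± 0.429 CPM in siETV4 and 5.29 ± 0.663 CPM in siNC (SD, n = 4 each), with an edgeR adjusted p of 0.324. All its siETV4 libraries lay below all siNC libraries, as did those of 3.93% of all genes. ETV5 was called lower without siNC replicate 4, described below (log2 fold change -0.54, edgeR adjusted p 0.0453, where 16.9% of all genes were called), and not after a correction for GC content (-0.47, edgeR adjusted p 0.162). ETV1 averaged 0.804 CPM with siETV4 and 1.04 CPM with siNC. Libraries held 35057643 to 41657753 counts. Keratinocyte markers summed to between 4641 and 5256 CPM with siETV4 and between 4992 and 5564 CPM with siNC, and of these 10 markers 0 were called. Markers of other cell types were low, and 0 of them were called. The 6 fibroblast markers summed to between 4.16 and 5.34 CPM with siETV4 and between 3.42 and 6.44 CPM with siNC, with COL1A2 and LUM at 0 counts and most reads in COL1A1. One of them, DCN, had 109 counts in all siETV4 libraries and 22 in all siNC libraries (edgeR log2 fold change 2.17, SE 0.58, adjusted p 0.203). Its CPM was higher in every siETV4 library than in any siNC library, as was true of 2.62% of all genes. The 6 melanocyte markers summed to between 5.71 and 8.95 CPM with siETV4 and between 4.28 and 8.21 CPM with siNC, mostly MITF, with MLANA and TYR at 0. The 5 endothelial markers summed to between 15.2 and 21.9 CPM with siETV4 and between 14.0 and 18.4 CPM with siNC, mostly CDH5, with KDR at 0. The 6 blood cell markers summed to between 22.1 and 24.3 CPM with siETV4 and between 16.6 and 24.4 CPM with siNC, mostly CD68, with PTPRC at 0. The part of these markers in the results was not tested.

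One siNC library stood apart from the others of its group and touches most of the members. Each library deviates from the mean of all 8 with the GC content of transcripts, and this trend (Spearman's rho over genes, themselves not independent of each other) was -0.65, 0.21, -0.58 and 0.02 in siETV4 replicates 1 to 4. In siNC replicates 1, 2 and 3 it was 0.56, 0.53 and 0.64, and in siNC replicate 4 it was -0.60. The transcripts of PTGS2 and MET have a low GC content, 36.9% and 42.4%. Those of CCND1, MYC and CCND3 have 50.3%, 53.9% and 56.2%, and that of ETV4, lowest of its group in siNC replicate 4, has 60.8%. The trend of siNC replicate 4 was thus near that of siETV4 replicates 1 and 3. Beside the fit of all libraries, the members were therefore also fitted without siNC replicate 4, after a correction of each library for GC content and transcript length (below, the GC correction), and with both. Once siNC replicate 4 is left out, every siNC library (0.53 to 0.64) has a higher trend than every siETV4 library (-0.65 to 0.21). In that fit the GC trend and the siRNA cannot be told apart.

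MET and PTGS2 had the largest positive log2 fold changes among the members, and their promoters are shown for that reason. Both are the 250 bases before the RefSeq transcription start (GRCh38.p14), written 5′ to 3′ on the gene's strand. Capitals mark the motif AGGAAG or the related motif CGGAAG, or the reverse complement of either, 2 forms of the ETS core with its flanks. The RefSeq start of MET lies upstream of the GENCODE v29 start given below. The MET window is chr7:116671946-116672195 on the plus strand, and the PTGS2 window is chr1:186680424-186680673 on the minus strand.
MET: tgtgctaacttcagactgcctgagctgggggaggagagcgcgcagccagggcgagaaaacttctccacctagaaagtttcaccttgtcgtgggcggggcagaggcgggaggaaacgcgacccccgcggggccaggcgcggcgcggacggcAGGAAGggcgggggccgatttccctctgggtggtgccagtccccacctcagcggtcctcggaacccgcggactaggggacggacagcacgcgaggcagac
PTGS2: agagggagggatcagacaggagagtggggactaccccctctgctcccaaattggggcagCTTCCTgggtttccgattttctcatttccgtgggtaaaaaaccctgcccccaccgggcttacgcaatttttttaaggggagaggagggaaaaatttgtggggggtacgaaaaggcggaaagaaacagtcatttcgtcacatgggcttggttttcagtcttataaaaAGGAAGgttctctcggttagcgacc

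The MET window held 1 match, AGGAAG with its first base 100 bases before the start. The PTGS2 window held AGGAAG with its first base 25 bases before the start and the reverse complement CTTCCT at 191 bases before it. Windows of 5 members were searched (CCND3, MET, PTGS2, SPP1 and CXCR4), 9 windows in all, and 7 of the 9 had at least 1 match on either strand. By gene, 4 of the 5 members had a match. No window of CCND1 or MYC was searched. The windows without one were the single window of SPP1 and 1 of the 3 of CXCR4. Over all 35116 promoter windows of this length, 28.7% held AGGAAG, 16.5% held CGGAAG and 40.8% held at least 1 of them on either strand. TGACTCA, the AP-1 site with which ETS sites are often paired, was in 4.20% of all windows and in 0 of the 9 member windows, on either strand. These are matches of letters and no measure of binding.

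MET, on chromosome 7 from 116672390 to 116798386 (GRCh38, GENCODE v29), was measured at 238, 154, 223 and 198 CPM in siETV4 replicates 1 to 4, against 128, 117, 113 and 228 CPM in siNC replicates 1 to 4. The 4 siETV4 libraries lay above siNC replicates 1 to 3, while siNC replicate 4 was higher than all siETV4 libraries but replicate 1, so the groups overlapped. The log2 fold change was 0.47 (SE 0.22, 95% interval -0.0066 to 0.95), with an edgeR adjusted p of 0.400. siNC replicate 4 held 1.91 times the mean of the other siNC libraries. Ordered from high to low MET, 6 of the 8 libraries stood in the same place as in the order from low to high GC trend.

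The call for MET turned on that library. Without siNC replicate 4 the log2 fold change was 0.77 (SE 0.13) and the edgeR adjusted p 0.00612, in a comparison where 16.9% of all genes were called, 12% higher and 4.88% lower. After the GC correction of all 8 libraries it was 0.33 (SE 0.09, edgeR adjusted p 0.0991), where 1.79% of all genes were called (0.898% higher, 0.89% lower). With both, it was 0.44 (SE 0.07, edgeR adjusted p 0.00279), where 6.57% of all genes were called (3.01% higher, 3.56% lower).

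PTGS2, on chromosome 1 from 186671791 to 186680427, was the least abundant of the tested members. It stood at 25.5, 14.8, 24.5 and 20.2 CPM in siETV4 replicates 1 to 4, from 1059, 600, 1018 and 836 counts. In siNC replicates 1 to 4 it stood at 11.6, 8.18, 7.60 and 20.5 CPM, from 475, 275, 302 and 848 counts. As for MET, every siETV4 library lay above siNC replicates 1 to 3, and siNC replicate 4 fell inside the siETV4 range. PTGS2 had a log2 fold change of 0.82 (SE 0.30, 95% interval 0.17 to 1.48), with an edgeR adjusted p of 0.332.

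Among the 5 members PTGS2 had the widest spread, a coefficient of variation of 23.0% in siETV4 and 49.9% in siNC, and of 23.6% in siNC without replicate 4. That replicate held 2.25 times the mean of the others. Without it the log2 fold change of PTGS2 was 1.22 (SE 0.20) and the edgeR adjusted p 0.00601, where 12% of all genes were called higher. After the GC correction it was 0.62 (SE 0.16, edgeR adjusted p 0.0691). With both it was 0.76 (SE 0.14, edgeR adjusted p 0.00756), where 3.01% of all genes were called higher. In all 4 fits the value was positive.

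**Figure D1:**
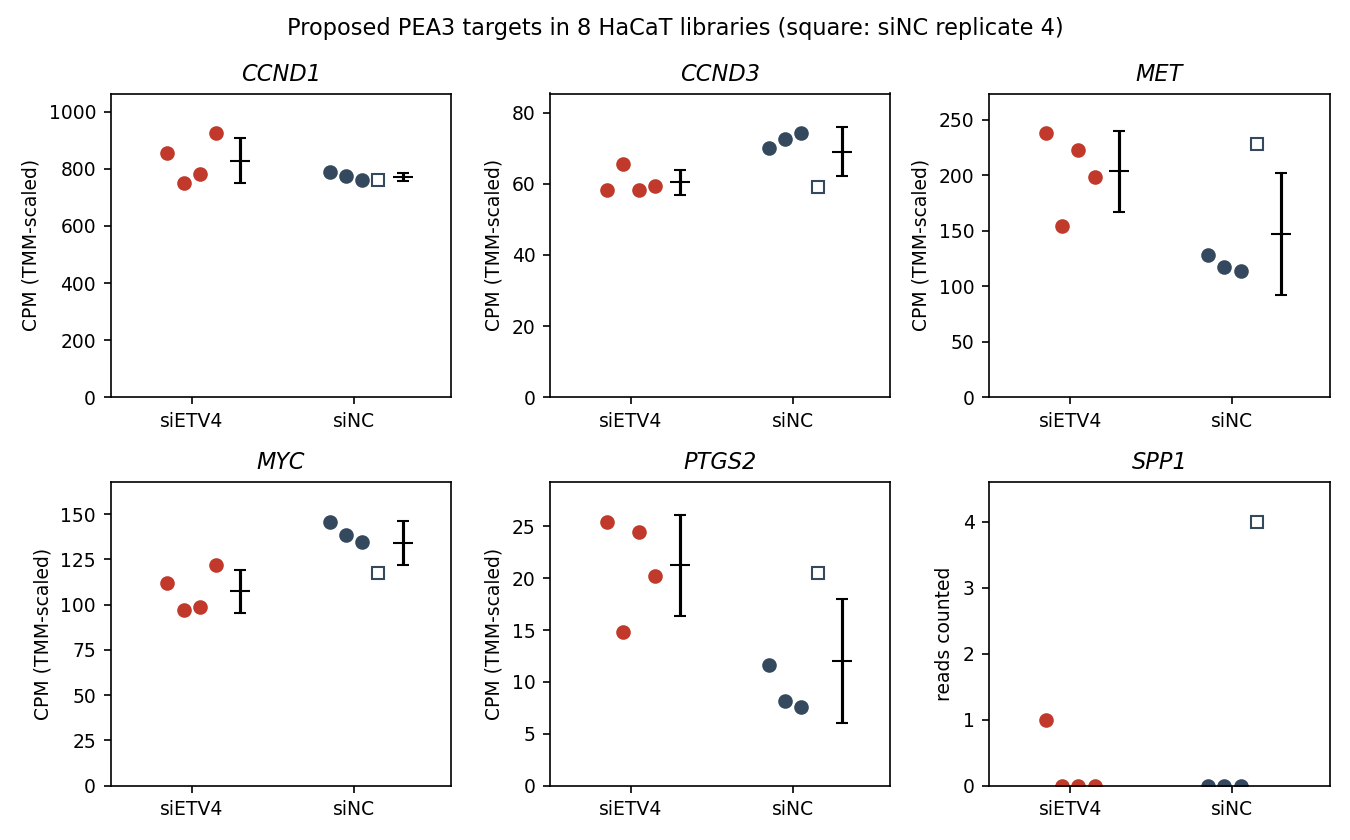
CPM of 5 members and read counts of SPP1 in each library (points), with siETV4 left of siNC; black bars are mean ± SD of 4 libraries and the open square is siNC replicate 4. MET and PTGS2 in siNC replicate 4 (228 and 20.5 CPM) lie among the siETV4 points and above the other siNC points, and every axis starts at 0.

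**Figure D2:**
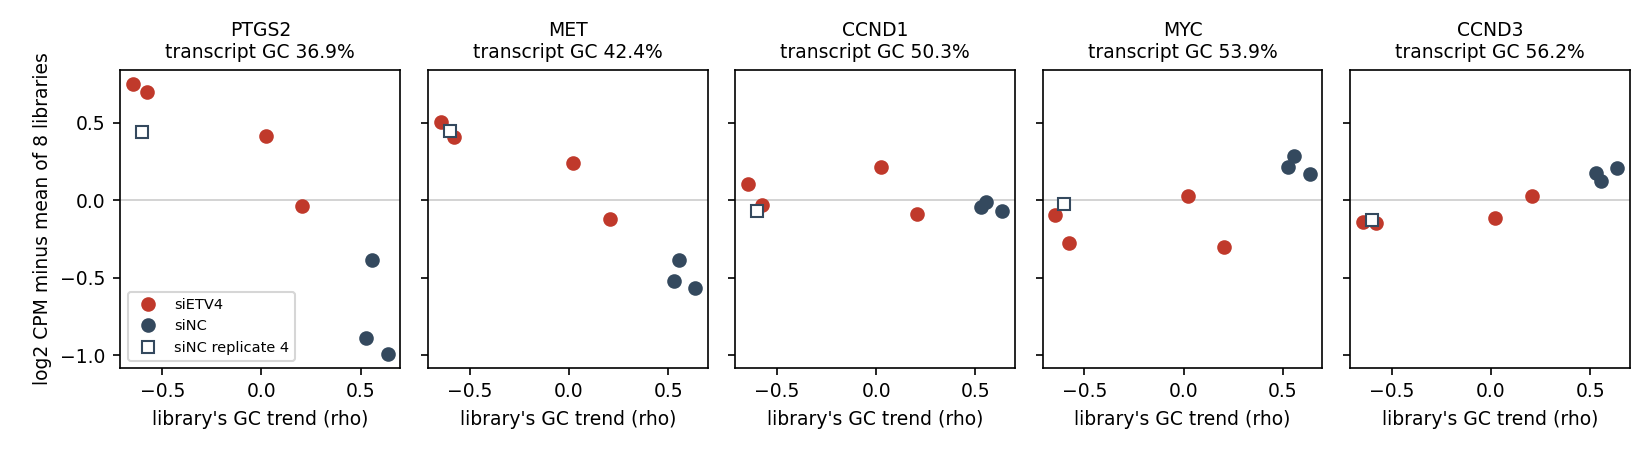
Log2 CPM of each tested member relative to its mean over the 8 libraries (y) against the library's GC trend, Spearman's rho across genes (x), with members ordered by transcript GC content. PTGS2 and MET (36.9% and 42.4% GC) run from high to low as the trend goes from -0.65 to 0.64, and CCND1 (50.3% GC) shows no such order.

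MYC had the lowest log2 fold change among the members. It lies on chromosome 8 from 127735434 to 127741434 and was measured at 112, 97.1, 98.6 and 122 CPM in siETV4 replicates 1 to 4, against 146, 139, 135 and 117 CPM in siNC replicates 1 to 4. All siETV4 libraries lay below siNC replicates 1 to 3, and siETV4 replicate 4 lay above siNC replicate 4, which was the only overlap. MYC had a log2 fold change of -0.32 (SE 0.10, 95% interval -0.55 to -0.09), with an edgeR adjusted p of 0.290. siNC replicate 4 held 0.840 times the mean of the other siNC libraries.

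MYC was called lower in siETV4 when siNC replicate 4 was left out (log2 fold change -0.38, SE 0.10, edgeR adjusted p 0.0224). In that fit 16.9% of all genes were called, 4.88% lower. After the GC correction it was -0.21 (SE 0.07, edgeR adjusted p 0.181), and with both -0.23 (SE 0.08, edgeR adjusted p 0.0855). The library order of MYC followed the GC trend less closely than that of MET. By exact place, 1 of 8 libraries matched when ordered from high to low MYC, and 0 when ordered from low to high. Exact places miss a looser order: siNC replicates 1, 2 and 3 were highest both in MYC and in GC trend. From low to high MYC, the largest shift of a library from its place by GC trend was 4 places. For MET, from high to low, it was 1.

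The D-type cyclins differed little between the siRNAs. CCND1, on chromosome 11 from 69641087 to 69654474, was the most abundant member, at 857, 749, 781 and 925 CPM in siETV4 replicates 1 to 4, against 790, 774, 761 and 762 CPM in siNC replicates 1 to 4. The siETV4 libraries lay on both sides of the narrow siNC range, with a coefficient of variation of 9.54% in siETV4 and 1.78% in siNC. The log2 fold change was 0.10 (SE 0.09), and its 95% interval of -0.09 to 0.29 holds 0 (edgeR adjusted p 0.624). It was 0.10 without siNC replicate 4, 0.15 after the GC correction and 0.16 with both (edgeR adjusted p 0.460, 0.257 and 0.153). The 95% interval after the GC correction was 0.015 to 0.276, which does not hold 0. With siETV4 replicate 4 left out and no GC correction, the log2 fold change was 0.04. CCND1 overlaps LTO1 on the other strand, which had 8868 counts in all libraries beside 256967 for CCND1, and the strand setting of the counting is unknown.

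CCND3, on chromosome 6 from 41934933 to 42050357, stood at 58.3, 65.5, 58.2 and 59.5 CPM in siETV4 replicates 1 to 4, against 70.1, 72.7, 74.2 and 59.0 CPM in siNC replicates 1 to 4. All siETV4 libraries lay below siNC replicates 1 to 3, and siNC replicate 4 lay within the siETV4 range. Ordered from low to high CCND3, 3 of the 8 libraries stood in the same place as by GC trend. The largest shift was 2 places. The log2 fold change was -0.19 (SE 0.10, 95% interval -0.41 to 0.03, edgeR adjusted p 0.45). Leaving out siNC replicate 4 gave -0.26 (edgeR adjusted p 0.0566), and after the GC correction it was -0.06 (edgeR adjusted p 0.664), and with both -0.07 (edgeR adjusted p 0.589). CCND2, the remaining D-type cyclin, averaged 29.3 ± 4.32 CPM with siETV4 and 24.3 ± 0.50 CPM with siNC (SD, n = 4 each; log2 fold change 0.27, SE 0.13, edgeR adjusted p 0.404). CCND2 had a log2 fold change of 0.29 without siNC replicate 4, 0.17 after the GC correction and 0.11 with both (edgeR adjusted p 0.135, 0.400 and 0.534).

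**Figure D3:**
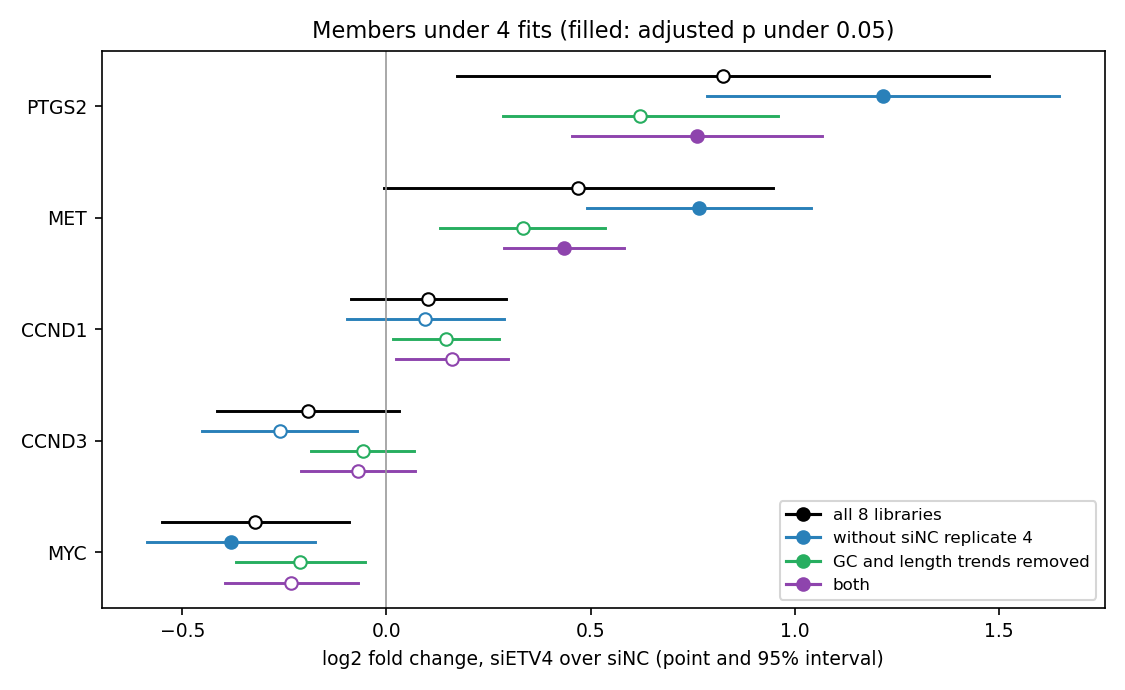
Log2 fold change of each tested member (x, siETV4 over siNC, point and 95% interval) in 4 fits; filled points have an edgeR adjusted p under 0.05. PTGS2 and MET lie right of 0 and MYC left of 0 in each fit, and filled points appear only in the fits without siNC replicate 4.

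Per transcript length, in the deposited FPKM, CCND1 stood far above the other members, at 198 ± 20.3 FPKM in siETV4 and 179 ± 5.20 FPKM in siNC (SD, n = 4 each). In siETV4 the next were MET at 28.9 ± 5.63, MYC at 24.1 ± 2.75 and CCND3 at 19.6 ± 0.741 FPKM. In siNC the order was MYC at 29.2 ± 2.11, CCND3 at 21.7 ± 1.64 and MET at 20.3 ± 8.28 FPKM. In siETV4 the MET libraries (21.3 to 33.7 FPKM) overlapped those of MYC (21.2 to 27.4 FPKM). Within each siETV4 library MET was above MYC, by little in replicates 2 and 4. The pairs were 33.7 and 25.2, 21.25 and 21.18, 32.4 and 22.7, and 28.1 and 27.4 FPKM in replicates 1 to 4. The order of these genes was not tested. In siNC the MET libraries (15.4 to 32.7 FPKM) overlapped both MYC (26.6 to 31.8 FPKM) and CCND3 (19.3 to 23.1 FPKM). MET was also above MYC in siNC replicate 4 (32.7 and 26.6 FPKM), and below it in siNC replicates 1 to 3. PTGS2 was lower, at 4.79 ± 1.17 FPKM in siETV4 and 2.64 ± 1.41 FPKM in siNC.

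CCND1 made up most of the D-type cyclin transcripts. Of the summed FPKM of CCND1, CCND2 and CCND3, it took 89.6%, 87.8%, 88.8% and 90.0% in siETV4 replicates 1 to 4, and 87.7%, 87.1%, 86.7% and 88.8% in siNC replicates 1 to 4. CCND3 took between 7.86 and 10.4% with siETV4 and between 9.33 and 11.5% with siNC. CCND2 took between 1.79 and 2.18% with siETV4 and between 1.76 and 1.90% with siNC. The mean CCND1 share was 1.49 percentage points higher in siETV4 (89.1 ± 0.982% against 87.6 ± 0.884% in siNC, SD, n = 4 each). The groups overlapped, and a two-sided exact permutation test gave p = 0.0571, where the smallest p that 4 against 4 allows is 0.0286. With counts in place of FPKM the difference was 0.968 percentage points (exact permutation p 0.114). siETV4 replicates 1, 3 and 4 and siNC replicate 4 had the highest shares and also the lowest GC trends. The transcripts of CCND2, CCND1 and CCND3 have 45.5%, 50.3% and 56.2% GC. The part of the GC trend in the share was not tested.

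**Figure D4:**
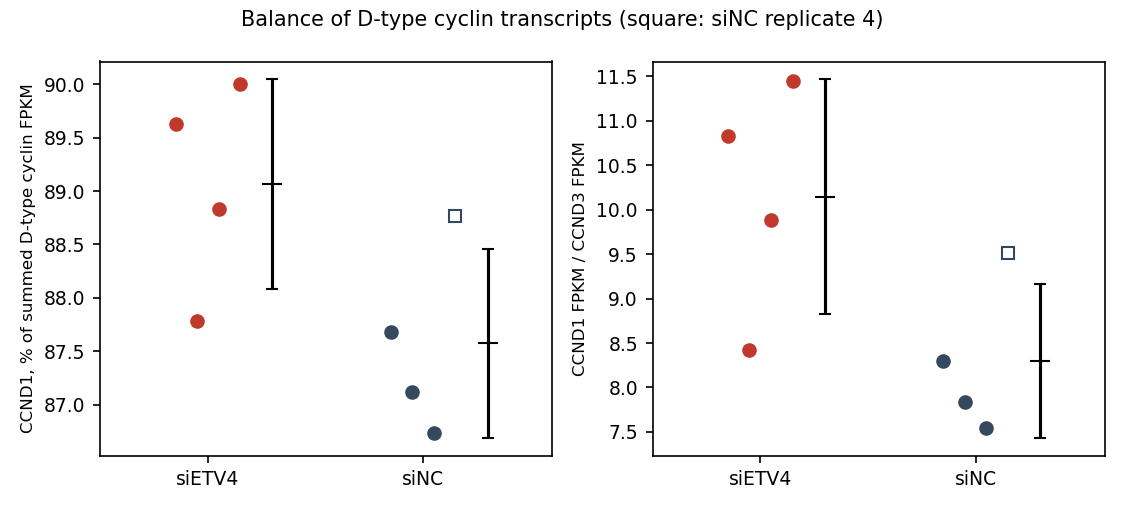
Share of CCND1 in the summed FPKM of the 3 D-type cyclins (left, percent) and the ratio of CCND1 to CCND3 FPKM (right), 1 point per library, siETV4 left of siNC; bars are mean ± SD and the axes do not start at 0. The shares run from 87.8 to 90.0% in siETV4 and from 86.7 to 88.8% in siNC, whose highest value is replicate 4.

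SPP1 and CXCR4 were at or near 0 in these cells. SPP1, on chromosome 4 from 87975650 to 87983426, had 1 count in siETV4 replicate 1 and 4 counts in siNC replicate 4, and 0 in the other 6 libraries. The ratio of siETV4 to siNC, per total counts, was 0.243 with an exact 95% interval of 0.00492 to 2.45, so neither direction can be told at this depth. CXCR4, on chromosome 2 from 136114349 to 136118165, had 0 counts in all 8 libraries, which allows up to 0.00936 CPM over all of them together (3 counts of the total). Neither gene could show a lower level in siETV4, since siNC had almost no reads of them.

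By the pattern of log2 CPM over the 8 libraries, the genes most like MET were KPNA1 and PICALM (Pearson's r 1.00 and 0.99), and those most like PTGS2 were ARMCX5 and AGFG1 (1.00 and 0.99). The genes most like MYC were ZXDC and ODF2 (0.99 and 0.98), those most like CCND3 were HAUS4 and WDR54 (1.00 and 0.99), and those most like CCND1 were UVSSA and ZDHHC7 (both 0.95). These values describe 8 libraries chosen as maxima over all tested genes, and the points share the library trends given above. The transcript GC contents were 39.9% and 42.1% for KPNA1 and PICALM, 44.7% and 37.4% for ARMCX5 and AGFG1, 54.3% and 51.0% for ZXDC and ODF2, 51.8% and 57.0% for HAUS4 and WDR54, and 47.7% and 52.1% for UVSSA and ZDHHC7.

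The genes around the members were examined as lists. Of the kinases, inhibitors, substrates and adaptors of D-type cyclins, 0 of 21 tested were called by edgeR. The median log2 fold change was 0.09, against -0.01 over all genes. Of the 21, 2 had an unadjusted edgeR p under 0.05, as did 12.6% of all genes. The kinases CDK4 and CDK2 were the most abundant, at 344 ± 48.1 and 107 ± 4.87 CPM in siETV4 and 349 ± 48.9 and 110 ± 6.99 CPM in siNC (SD, n = 4 each), with log2 fold changes of -0.02 and -0.04. CDK4 and CDK2 change sign with the scaling. DESeq2 called 2 members of this list, where it called 1.12% of all genes (0.637% higher, 0.487% lower), and limma-voom 0.

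Those genes, named after their values were seen, were CDKN2B and E2F2. CDKN2B encodes p15, an inhibitor of CDK4 and CDK6, and stood at 73.1, 64.1, 70.7 and 80.3 CPM in siETV4 replicates 1 to 4, against 51.7, 48.5, 46.0 and 50.8 CPM in siNC replicates 1 to 4. Every siETV4 library was above every siNC library, as was true of 2.62% of all genes tested. The log2 fold change was 0.55 (SE 0.10, edgeR adjusted p 0.0551, DESeq2 adjusted p 3.59e-04). E2F2, a transcription factor released when cyclin D kinases phosphorylate RB, stood at 29.1, 30.5, 27.4 and 31.5 CPM in siETV4 and 43.5, 39.2, 44.2 and 39.7 CPM in siNC. All its siETV4 libraries lay below all siNC libraries, as did those of 3.93% of all genes (log2 fold change -0.49, SE 0.10, edgeR adjusted p 0.110, DESeq2 adjusted p 0.00333). The GC correction, with 1.79% of all genes called, led edgeR to call CDKN2B and E2F2 (adjusted p 0.0277 and 0.0190). It then also called CDKN1A, the p21 gene, likewise named after its values were seen (log2 fold change 0.30, adjusted p 0.0329). With no correction CDKN1A was at 0.16 (SE 0.10, edgeR adjusted p 0.493) with overlapping groups. With siNC replicate 4 left out, where 12% of all genes were called higher and 4.88% lower, 2 of the 21 were called higher (CDKN2B and RB1) and 1 lower (E2F2). With both, where 6.57% of all genes were called, CDKN2B, CDKN1A and E2F2 were called.

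Of the 13 tested genes around MET, 0 were called by edgeR, DESeq2 or limma-voom, and the median log2 fold change was -0.04. An unadjusted edgeR p under 0.05 was found for 2 of them, and for 12.6% of all genes. HGF, the ligand, and its activators HGFAC and HPN, named for these values, had 0 counts in every library. The protease ST14, which activates the ligand, and its inhibitor SPINT2 were the most abundant, at 382 ± 27.6 and 376 ± 32.9 CPM in siETV4 and 377 ± 38.2 and 387 ± 52.7 CPM in siNC (SD, n = 4 each). SPINT1, the other inhibitor of these proteases, was named after its values were seen. It averaged 163 ± 18.2 CPM with siETV4 and 217 ± 23.6 CPM with siNC (log2 fold change -0.42, edgeR adjusted p 0.192). Its siETV4 libraries lay below all siNC libraries, as did those of 3.93% of all genes. SPINT1 was called lower without siNC replicate 4, where 12% of all genes were called higher and 4.88% lower (edgeR adjusted p 0.0121), and PTPN11 and ADAM17 higher. SPINT1 was, after the GC correction, at -0.28 (edgeR adjusted p 0.0623) and 0 of the 13 were called, and with both SPINT1 was called (-0.28, edgeR adjusted p 0.0346).

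Of the 15 tested partners, antagonists and stability factors of MYC, 0 were called by any of the 3 tools, and the median log2 fold change was -0.16. An unadjusted edgeR p under 0.05 was found for 1 of the 15, and for 12.6% of all genes. The gene of this list was MAX, the obligate partner of MYC, named after its values were seen. MAX averaged 64.7 ± 1.84 CPM with siETV4 and 79.8 ± 6.74 CPM with siNC (log2 fold change -0.30, edgeR adjusted p 0.262). Its siETV4 libraries lay below all siNC libraries, which held for 3.93% of all genes. Without siNC replicate 4, where 16.9% of all genes were called, MAX was called lower (edgeR adjusted p 0.0221) and USP28 higher. MXD4 was called higher and MXD1 lower after the GC correction, where 1.79% of all genes were called, and MAX was at -0.22 (edgeR adjusted p 0.0721). MXD4 and MXD1 were also called with both, where 6.57% of all genes were. The ubiquitin ligase HUWE1 had a log2 fold change of -0.27, which was -0.44 without siETV4 replicate 4 and -0.14 without siNC replicate 1. MLXIP, a partner of MLX, had one of -0.19, which was -0.34 and -0.09 without the same libraries. Of 20 genes that MYC is known to induce, 0 were called by the 3 tools, and the median was 0.05. In this list 4 had an unadjusted edgeR p under 0.05, all higher in siETV4. Over all genes 12.6% lay there, 787 genes higher and 921 lower. NPM1, a nucleolar protein, had a log2 fold change of 0.32 (edgeR adjusted p 0.395) and LDHA, lactate dehydrogenase A, one of -0.19 (edgeR adjusted p 0.430). With siNC replicate 4 left out, 6 genes of the list were called, all higher, where 12% of all genes were called higher. After the GC correction 1 was called, where 1.79% of all genes were: LDHA, lower in siETV4 (log2 fold change -0.35, edgeR adjusted p 0.0386). With both, NCL, WDR43 and DKC1 were called higher and LDHA lower, where 3.01% of all genes were called higher and 3.56% lower.

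Of 13 tested genes of prostaglandin synthesis, transport and reception, 0 were called by the 3 tools, and the median log2 fold change was -0.14. An unadjusted edgeR p under 0.05 was found for 2 of them, and for 12.6% of all genes. PTGES and PTGES3, which turn prostaglandin H2 into prostaglandin E2, were the most abundant, at 601 ± 47.7 and 379 ± 34.0 CPM in siETV4 and 593 ± 68.3 and 417 ± 26.5 CPM in siNC (SD, n = 4 each). Their log2 fold changes were 0.02 and -0.14. In the fit that left out siNC replicate 4, 3 genes were called, all higher in siETV4, where 12% of all genes were called higher, and after the GC correction 0 were, with a median of -0.01. With both, ABCC4 was called higher and PTGES3 lower, where 3.01% of all genes were called higher and 3.56% lower.

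Of 7 tested osteopontin receptors, 0 were called by the 3 tools, and the median log2 fold change was 0.19. An unadjusted edgeR p under 0.05 was found for 2 of the 7, and for 12.6% of all genes. CD44 averaged 715 ± 74.6 CPM with siETV4 and 712 ± 59.97 CPM in siNC (SD, n = 4 each), and the integrin subunit ITGB1 averaged 340 ± 86.5 CPM with siETV4 and 273 ± 112 CPM with siNC. With siNC replicate 4 left out the median was 0.52, with 4 receptors called higher and 1 lower, where 12% and 4.88% of all genes were, and after the GC correction it was 0.01, with 0 called. With both the median was 0.14. ITGB6 was then called higher and ITGA5 lower, where 3.01% of all genes were called higher and 3.56% lower. Of 12 tested ligands, kinases and partners of CXCR4, 0 were called by the 3 tools, 0 had an unadjusted edgeR p under 0.05, and the median was -0.11. CXCL12, the ligand, named for this value, had 0 counts in every library. MIF, a cytokine that also binds CXCR4, had a log2 fold change of -0.27, and GNAI2, a G protein subunit, one of -0.14. Without siNC replicate 4, where 16.9% of all genes were called, MIF was called lower (-0.40) and ITCH and GNAI3 higher, and after the GC correction 0 of the 12 were called (MIF -0.09). With both, 0 of the 12 were called as well.

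**Figure D5:**
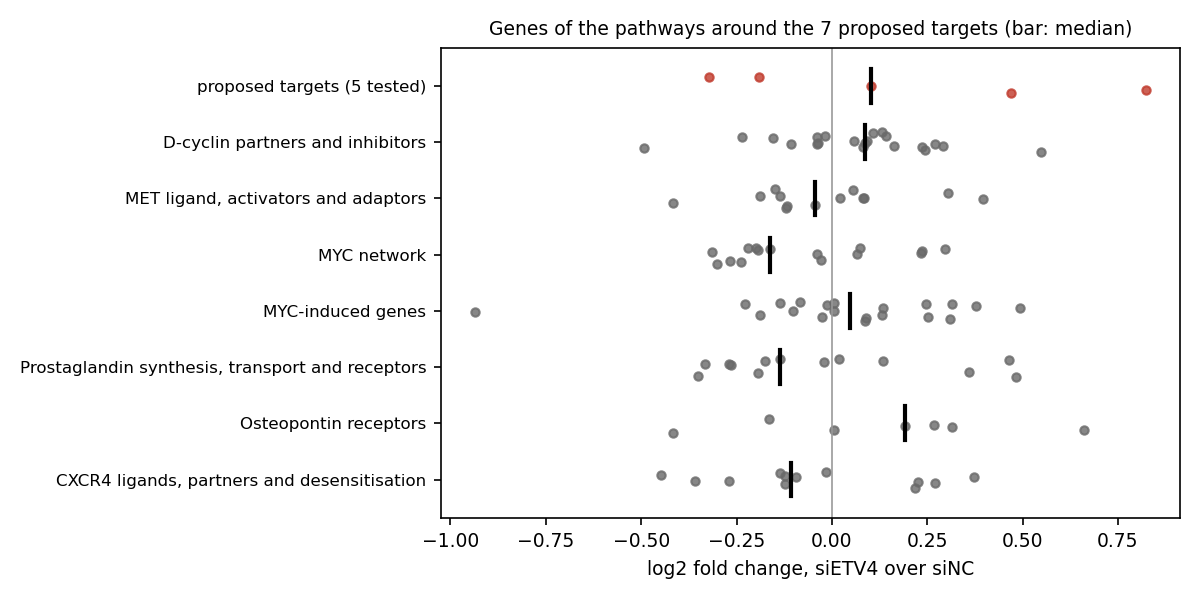
Log2 fold change (x, siETV4 over siNC) of each tested gene in the members and the 7 lists around them (rows); 1 point per gene, and the black bar is the median of the row. The medians lie between -0.16 (MYC network) and 0.19 (osteopontin receptors).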

How the data were processed

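Total RNA of 8 HaCaT cultures was sequenced, with group and replicate number as in the sample titles. The authors deposited raw read counts per gene symbol and FPKM values for 34415 symbols. The submitters' processing notes name hg38 and R 3.2.0. The aligner, the counter, the annotation, the strand setting and the siRNA sequences are not stated in the labels read here. For 20584 of the 20585 genes above 0, the deposited FPKM equals the count divided by the library total and by 1 fixed gene length (relative tolerance 1e-06).

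The deposited counts went into edgeR 4.0.16 (R 4.3.3). Low genes were removed by filterByExpr (minimum count 10), libraries were scaled by TMM factors, and the siRNA was the only model term. Each of 13572 genes was tested by quasi-likelihood, with p-values adjusted over all of them (Benjamini-Hochberg) and a threshold of 0.05 on the adjusted p. Fold changes run siETV4 over siNC. The 7 members and the pathway lists were chosen with earlier results of these data known. Named genes are the members, the PEA3 factors, CCND2, from each list up to 4 called genes or, where fewer than 2 were called, its 2 most abundant tested genes, and the 2 genes most like each member. Any other gene (those at 0 counts, the markers of other cell types, and list genes called only in an alternative) was named after its values were seen.

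Alternatives were RLE factors, library size alone, other filters, DESeq2 1.42.0, limma-voom and limma-trend (limma 3.58.1) on log2 FPKM plus 1 or 0.1, the replicate number as a block, offsets for GC content and length (the GC correction, splines with 5 degrees of freedom), and each library left out in turn. The offsets without siNC replicate 4 were added after the data had been seen. GC content is that of a gene's longest transcript in GENCODE v29, found for 12470 tested genes. Intervals and limits from counts cover counting error only.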

Additional observations from a re-analysis of the deposited data

Results flagged for a closer look

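In 84 groups of 4 libraries that were examined, 8 held a library far from the other 3 by Dixon's test (gap over range above 0.829), where chance flags about 1 group in 20. MET in siNC had a ratio of 0.870, with siNC replicate 4 at 228 CPM and the others at 113 to 128 CPM. The same library was the distant one for PICALM (0.892, 171 CPM) and KPNA1 (0.860, 111 CPM), genes chosen for their likeness to MET. It was also the distant one for ZXDC (0.839, 34.4 CPM), chosen for its likeness to MYC, and for the integrin subunit ITGB6, picked from its values (0.864, 69.6 CPM). MLXIP in siNC had a ratio of 0.960, from siNC replicate 1 at 96.4 CPM. In siETV4, replicate 2 stood apart for CDK4 (0.917, 416 CPM) and PTGES (0.915, 672 CPM).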

How the results depend on the processing

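The count of called members was 0 under every alternative except those without siNC replicate 4. Leaving out single libraries gave 0 to 3, the 3 being MET, PTGS2 and MYC without siNC replicate 4, where 16.9% of all genes were called. After the GC correction as well it was 2 (MET and PTGS2), where 6.57% of all genes were called. The direction of each of the 5 tested members was the same in every setting run. The CCND1 share difference was 1.17 to 1.91 percentage points with single libraries left out, where 3 against 4 cannot give an exact p below 0.0571. The count of all genes called, 32, was 54 with no filter, 164 with DESeq2, 59 with limma-trend on log2 FPKM plus either pseudocount at a mean FPKM of at least 0.5, 223 with the GC correction and 828 with it and without siNC replicate 4. Leaving out single libraries gave 9 to 2327, the 2327 without siNC replicate 4 and 9 to 16 without any other library. The cause was not tested.

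With the replicate number as a block, 4 genes were called, 102 with the block and the GC correction, and 0 members in either. Same-numbered libraries share only a number: the correlations of their deviations from the group means were -0.09, 0.30, -0.14 and -0.19 for numbers 1 to 4, and not every library correlated best with its own number.

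Genes near 0 changed sign without a call. CDK4 was 0.026 with library size alone and in all 3 FPKM tests, 0.091 after the GC correction, 0.088 with the block added, 0.072 with the correction and without siNC replicate 4, and -0.12 to 0.044 with single libraries left out. In the same order CDK2 was 0.0063, 0.0073 (pseudocount 1) or 0.0075 (pseudocount 0.1), 0.040, 0.043, 0.084, and -0.060 to 0.0078. SPINT2 was 0.0020, 0.0064 or 0.0065, 0.079, 0.080, 0.090, and -0.11 to 0.015. CD44 was -0.093 after the GC correction, -0.089 with the block added, -0.17 with the correction and without siNC replicate 4, and -0.062 to 0.064 with single libraries left out. AGFG1 was -0.099 with the correction and without siNC replicate 4. With single libraries left out ST14 was -0.050 to 0.059 and PTGES -0.040 to 0.073.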
